A study of Mus musculus with 20 samples.

Results

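Spats2l and its paralog Spats2 are 2 of the 19463 genes measured in whole-brain RNA from Katnal2-KO and WT mice. Spats2l was chosen by a measured value, the smallest p of the 17610 genes tested between KO and WT mice at P21, and Spats2 was added as its paralog. The comparison at P21 therefore chose the gene, and its values are given here as a description, with no test. The comparison at P70 was not used in that choice and was tested for both genes. The comparison of the ages uses the P21 mice again, so it is also a description for Spats2l and was tested for Spats2. Katnal2-KO mice were male C57BL/6J animals homozygous for a frame-shifting deletion of a Katnal2 exon, made from a EUCOMM targeted allele by Flp recombination in mice and then brief exposure of early embryos to a cell-permeable Cre protein, so the loss was not limited to the brain or to a cell type. WT mice were male and of the same strain, and no group was treated. Brains were taken at 3 weeks (P21) and 10 weeks (P70), with 5 mice in each of the 4 groups and 20 mice in all. The labels tie no mouse to a litter, an extraction or a sequencing run.

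Spats2l (spermatogenesis associated serine rich 2 like) encodes an RNA-binding protein, also called SGNP, that sits in the nucleolus and collects in cytoplasmic stress granules when cells are stressed. Stress granules are assemblies of stalled messenger RNAs and RNA-binding proteins, and the nucleolus is the site of ribosomal RNA synthesis. In human genetics, the gene is known for variants associated with the response to bronchodilators. Spats2 encodes a related RNA-binding protein first described in testis. Katnal2, the deleted gene, is a relative of the microtubule-severing katanins.

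Spats2l (ENSMUSG00000038305) lies on the plus strand of chromosome 1 from 57774162 to 57948394 and spans 174233 bases (GRCm38, GENCODE M21). The annotation gives it 15 transcripts, of which 9 are protein-coding. Of these 15, 13 start between 57774162 and 57774917 and 2 start further into the gene. Spats2 (ENSMUSG00000051934) lies on the plus strand of chromosome 15 from 99125916 to 99213215 and spans 87300 bases, with 7 transcripts, 6 of them protein-coding, whose starts all lie within 906 bases. An antisense gene, Gm17234, overlaps Spats2l on the minus strand, and a snoRNA and a small RNA gene overlap Spats2. None of these overlapping genes is listed in the table analysed here, and the library kit is not stated to keep strand. The overlap is between whole gene spans. Whether exons are shared, so that reads could be mixed, was not examined. The values are sums over the transcripts of a gene, so which start was used was not measured.

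The 300 bases around 1 RefSeq start of each gene (GRCm38.p6, plus strand, mostly upstream) are printed, with CpG dinucleotides in capitals. For Spats2l this is chr1:57845321-57845620, around an internal start 71.4 kb after the first annotated one, with 13 of the annotated transcripts beginning upstream of it. The region where those 13 transcripts begin was not examined, so the windows do not compare the main starts of the 2 genes. For Spats2 it is chr15:99126595-99126894.
Spats2l: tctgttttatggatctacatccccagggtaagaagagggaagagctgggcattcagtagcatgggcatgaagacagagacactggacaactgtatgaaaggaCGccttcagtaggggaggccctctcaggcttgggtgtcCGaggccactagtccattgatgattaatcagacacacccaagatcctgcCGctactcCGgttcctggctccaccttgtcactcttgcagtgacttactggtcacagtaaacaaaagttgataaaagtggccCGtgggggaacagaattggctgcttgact
Spats2: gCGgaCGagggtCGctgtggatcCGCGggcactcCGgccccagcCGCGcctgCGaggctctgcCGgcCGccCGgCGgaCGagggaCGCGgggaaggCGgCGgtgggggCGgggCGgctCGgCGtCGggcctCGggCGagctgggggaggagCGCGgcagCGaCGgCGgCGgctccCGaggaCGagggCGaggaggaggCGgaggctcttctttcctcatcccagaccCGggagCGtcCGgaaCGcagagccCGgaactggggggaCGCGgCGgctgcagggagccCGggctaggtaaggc
The Spats2l window holds 5 CpG dinucleotides and is 51.0% G and C, against a median of 7 CpG over 32851 RefSeq promoter windows of the same length. The Spats2 window holds 44 CpG and is 78.0% G and C, and 97.8% of all windows hold fewer CpG. Searched on both strands, the GC box GGGCGG matched at 3 places in the Spats2 window and at 0 in the Spats2l window, and it occurs in 35.7% of all windows. The CCAAT box CCAAT matched once in Spats2l and at no place in Spats2 (37.4% of all windows). The TATA box TATAAA (13.6% of all windows), the E-box CACGTG (7.15%), the cAMP response element TGACGTCA (1.79%) and the AP-1 site TGACTCA (5.2%) matched in neither. These matches describe letters in 2 windows and say nothing of binding.

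The deposited values are read counts normalized across the 20 mice, which sum to between 27310523 and 28423042 in each mouse. Katnal2 itself was 89.0 ± 8.7 in P21 KO and 107.4 ± 7.4 in P21 WT mice, and 105.1 ± 11.8 in P70 KO and 122.0 ± 16.4 in P70 WT mice (normalized counts, SD, n = 5 each). KO and WT mice did not overlap at P21 and overlapped at P70, and these totals over the whole gene do not show the deleted exon by itself. Both replicate 5 mice at P70 stood apart from their groups over all genes, with a mean absolute log2 deviation of 0.379 in KO and 0.313 in WT, against 0.126 to 0.2 in the other 18 mice. The neuron markers checked (Snap25, Syt1, Rbfox3 and 7 others) summed to 172100 to 185600 in KO and 173000 to 184800 in WT mice over both ages.

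At P21, Spats2l was lower in Katnal2-KO brain, and the values of Spats2 overlapped between the genotypes. Spats2l had 819.2, 846.8, 721.0, 985.4 and 838.8 normalized counts in the WT mice of replicates 1 to 5. It had 614.3, 600.4, 598.0, 573.4 and 574.1 in the KO mice. No KO value reached the lowest WT value, and the KO mice lay within a narrow band. The p that chose the gene is smaller where groups are tight, so this band is not independent of the choice. The means were 592 ± 17.8 in KO and 842 ± 94.5 in WT mice (SD, n = 5 each), a change of the mean of -29.7%. On the log2(value + 1) scale the difference was -0.50 (standard error 0.07 from limma). Of the 17610 genes, 36, or 0.204%, had all KO values below all WT values at P21, and Spats2l is among them by its choice. At P21, 0 genes, or 0%, had an adjusted p under 0.05 from limma, so Spats2l did not pass either. Without adjustment, 429 genes, or 2.44%, had a p under 0.05. The coefficient of variation of Spats2l was 3.01% in the KO and 11.2% in the WT mice.

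The next genes by p in that comparison were Aph1c, a subunit of the gamma-secretase that cleaves Notch and the amyloid precursor protein, and Lenep, a lens protein gene. Aph1c was higher in KO mice, at 307 ± 36.7 against 213 ± 26.4 normalized counts (SD, n = 5 each), a log2 difference of 0.53 (standard error 0.10). Lenep was listed at 0 in 4 of the 5 KO mice and at 37.1 in the other one, and at 19.99 to 98.4 in WT mice.

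Spats2 at P21 had 758.3, 720.7, 732.1, 752.7 and 781.1 normalized counts in the WT mice and 725.6, 746.2, 771.2, 737.4 and 700.7 in the KO mice. The groups overlapped over most of their range. The means were 736 ± 25.98 in KO and 749 ± 23.5 in WT mice (SD, n = 5 each), a log2 difference of -0.02 (standard error 0.05), also given with no test because it comes from the comparison that chose Spats2l. The ratio of Spats2l to Spats2 within a mouse is free of any factor that scales a whole library, but not of gene-specific factors of the normalization. It was 0.775 to 0.847 in P21 KO and 0.985 to 1.309 in P21 WT mice, with no overlap. Because Spats2 varied little, the ratio restates the P21 values that chose Spats2l and adds no support. This ratio was added after seeing the data.

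**Figure D1:**
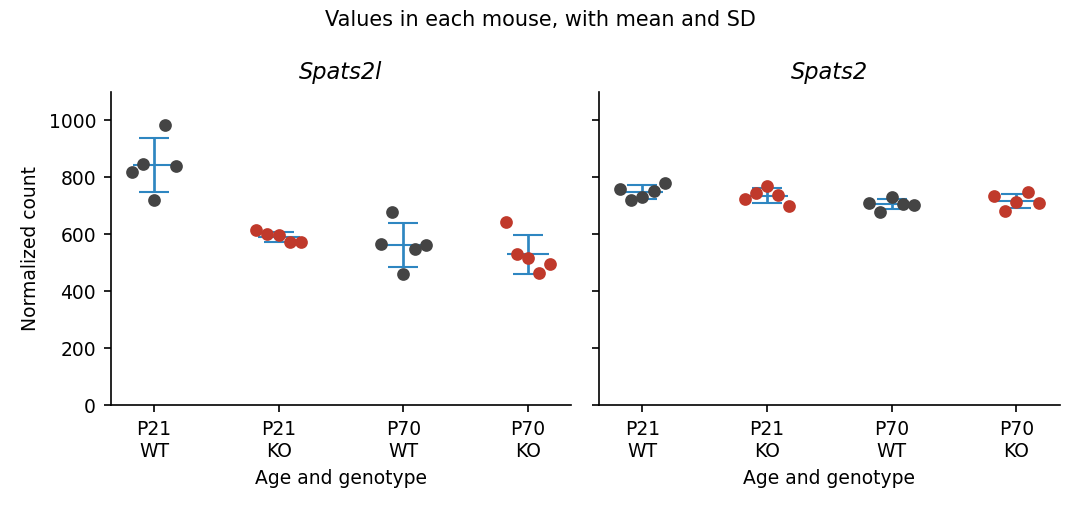
Normalized counts of Spats2l (left) and Spats2 (right) in each of the 20 mice by age and genotype (grey, WT and red, KO), with the mean and SD of each group of 5 in blue, on an axis that starts at 0. The 5 P21 WT mice are the highest for Spats2l, from 721 to 985, while Spats2 stays between 680 and 781 in all 4 groups.

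At P70, the difference between the genotypes was within the spread of the mice for both genes. Spats2l had 565.8, 679.5, 460.6, 549.4 and 562.4 normalized counts in the WT mice of replicates 1 to 5, and 643.7, 530.3, 517.7, 465.9 and 495.1 in the KO mice. The highest and the lowest of these 10 values both belonged to WT mice, and the groups overlapped, where 0.193% of all genes had groups that did not. The means were 531 ± 67.8 in KO and 564 ± 77.9 in WT mice (SD, n = 5 each), a change of the mean of -5.86%. The log2 difference was -0.08 (standard error 0.12, 95% interval -0.34 to 0.17, adjusted p = 1 from limma, by Benjamini-Hochberg over 17613 genes), and the exact two-sided permutation test gave p = 0.5, where 0.00794 is the smallest that 5 against 5 mice allow. At this age 0 genes, or 0%, had an adjusted p under 0.05 from limma, and 199, or 1.13%, had an unadjusted p under 0.05. With the pair of replicate 5 mice removed, which was decided once the values were known, the difference was -0.06 (standard error 0.12). The ratio to Spats2 was 0.624 to 0.874 in KO and 0.629 to 1.00 in WT mice, and it overlapped. Whether the difference between KO and WT mice itself changed from P21 to P70 was not tested, because that test would use the P21 values that chose the gene.

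Spats2 at P70 had 712.0, 679.6, 732.5, 708.5 and 701.9 normalized counts in the WT mice and 736.5, 682.0, 714.3, 747.2 and 708.7 in the KO mice. The means were 718 ± 25.5 in KO and 707 ± 19.1 in WT mice (SD, n = 5 each), with overlapping groups. The log2 difference was 0.02 (standard error 0.07, 95% interval -0.12 to 0.17, adjusted p = 1 from limma over all genes), and the exact two-sided permutation p was 0.429.

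From P21 to P70, Spats2l was lower when both genotypes were averaged with equal weight, with a log2 difference of -0.37 (standard error 0.07 from limma, 20 mice). No test is given, because the P21 WT mice that were high where the gene was chosen enter this average, and they varied more on the log2 scale (SD 0.16) than the P21 KO mice (SD 0.0434). Differences with age were common in these brains, since 25.4% of the 17637 genes passed the adjusted threshold of 0.05 by limma, 12.8% with lower and 12.6% with higher values at P70. By the size of its difference, Spats2l ranked above 85.5% of the genes. This rank and the comparisons by genotype that follow use the P21 values that chose the gene, so they add no support for a change with age. By genotype, as a description, the mean went from 842 to 564 in WT mice, a change of -33.1%, and from 592 to 531 in KO mice, a change of -10.4%. The WT groups of the 2 ages did not overlap, as was the case with lower P70 values for 5.6% of genes, and the KO groups did overlap, where 5.51% of genes had all P70 values lower. The log2 difference was -0.58 (standard error 0.11) in WT and -0.17 (standard error 0.09) in KO mice, so that the lower level at P70 lay mostly in the WT mice, the ones that were high at P21.

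For Spats2, the mean of all mice was 743 at P21 and 712 at P70, a change of -4.08%. The log2 difference of -0.06 did not pass the threshold over all genes (standard error 0.04, 95% interval -0.14 to 0.02, unadjusted p = 0.114 and adjusted p = 0.246 from limma). The exact permutation within genotypes, which uses the spread of this gene alone, gave an unadjusted p of 0.0124. Limma takes part of the spread from other genes of like level, and Spats2 varied little between mice. Its standard deviation on the log2 scale was 0.0389 to 0.0514 in the 4 groups, and 0.867% to 8.35% of genes were steadier in the same group. The Spats2l spread was 0.0434 in P21 KO mice, where 5.45% of genes were steadier, and 0.16 to 0.199 in the other groups, where 32.4% to 56.6% were. Its spread at P21 entered the p that chose the gene, so the low P21 KO value is no separate result.

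**Figure D2:**
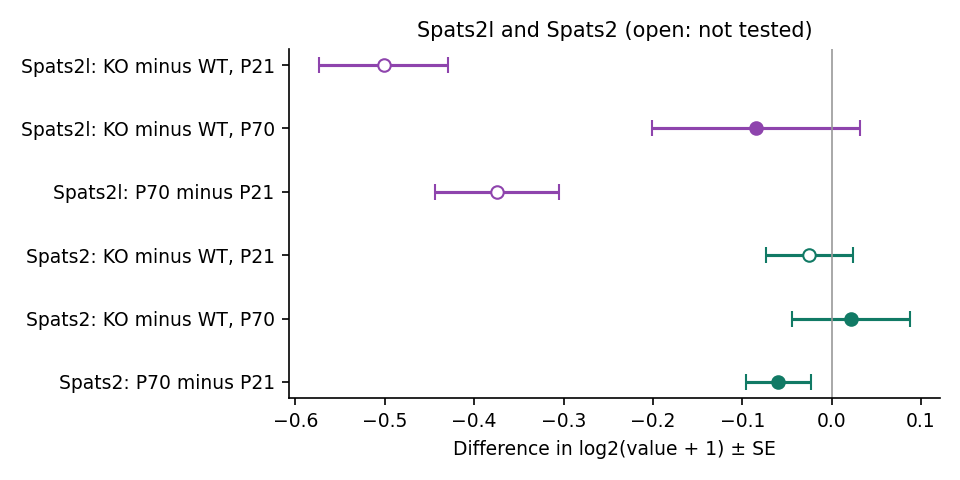
Differences of Spats2l (purple) and Spats2 (green) in log2(value + 1), with standard errors from limma, between KO and WT mice at P21 and P70 and between P70 and P21 with both genotypes averaged. Open circles mark the differences that use the P21 values by which Spats2l was chosen and carry no test, filled circles those that were tested, none of which passed an adjusted p of 0.05.

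In order of mean level, Spats2l was highest in P21 WT mice (842), then P21 KO (592), P70 WT (564) and P70 KO (531 normalized counts). The P21 KO and P70 WT means differed by less than the SD of the P70 WT mice, as did the means of both P70 groups. Spats2 stood in the order P21 WT (749), P21 KO (736), P70 KO (718) and P70 WT (707), each step smaller than the SD within the groups. Per kilobase of annotated exon, Spats2l had 104.7 normalized counts in P21 WT and 66.0 in P70 KO mice, which is more than 48.9% and 39.6% of 17623 genes. Spats2 had 181.8 and 174.2 per kilobase in the same groups, more than 62.4% and 61.2% of genes. With the longest coding transcript alone, of 3929 bases for Spats2l and 3096 for Spats2, the levels were 214.4 and 241.9 per kilobase in P21 WT mice and 135.0 and 231.8 in P70 KO mice. Spats2 was thus above Spats2l by either length, but the gap depended on the exons counted and was narrower with this transcript, most of all in P21 WT mice.

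Within groups, no shared movement of Spats2l and Spats2 was detected. Deviations from the group mean over the 20 mice had Pearson's r of -0.153 (permutation within groups, p = 0.541) and Spearman's rho of -0.0436 (permutation p = 0.863), the single relation tested. Without the 2 mice farthest from the median of Spats2l, KO replicate 1 and WT replicate 3 of P70, r was -0.171. Spats2l deviated over a wider range than Spats2 in all groups but P21 KO.

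**Figure D3:**
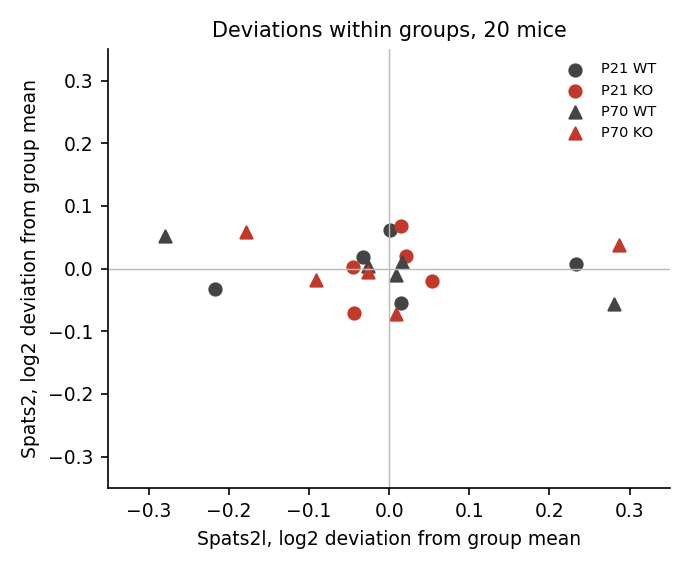
Deviation of each of the 20 mice from its group mean in log2(value + 1), for Spats2l (x axis) and Spats2 (y axis), with circles for P21, triangles for P70, grey for WT and red for KO. The points spread along the Spats2l axis and stay close to 0 on the Spats2 axis, with r = -0.153.

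The genes whose levels followed Spats2l most closely over the 20 mice were found among 12797 others with a mean of at least 100. They are a description over mice that share group differences, the P21 difference among them. Ptpro, a receptor-type tyrosine phosphatase, had r = 0.809 and went from 1302 in P21 WT and 1151 in P21 KO to 969 in P70 WT and 911 normalized counts in P70 KO mice. Next came Brinp3, a neural secreted protein (r = 0.767), Arpc5, a subunit of the actin-nucleating Arp2/3 complex (0.762), Lgr6, a receptor for R-spondins (0.76), and Dph6, a diphthamide synthesis enzyme (0.76). Lgr6 also had its highest mean in P21 WT mice, at 190.8 normalized counts against 122.6 to 131.9 in the other groups. Spats2 was at rank 1860 by this measure, with r = 0.388. With the group means removed, the closest genes were Mdga1, a membrane-anchored adhesion protein (r = 0.75), the RNA-binding Mex3a (0.742), Cldn34c1 (0.739), Lzic (0.737) and Fgd1, an exchange factor for Cdc42 (0.715). These are the highest of 12797 correlations and were not tested. Mdga1 was 913.9 in P70 WT replicate 3 (others 1234 to 1319), the lowest Spats2l of that group. Cldn34c1 was 142.7 in P21 KO replicate 1 (others 109.8 to 118.6), the highest Spats2l of that group. Such single mice weigh on r. No gene was among the 5 closest by both measures.

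For Spats2 the closest genes by level were Clptm1 (r = 0.761), the Golgi protein Tmem165 (0.75), Arhgap11a (0.746), the nuclear import receptor Kpna2 (0.732) and the translation inhibitor Pdcd4 (0.719). With the group means removed they were Taf12, a subunit of TFIID (0.679), Angel1 (0.667), the histone methyltransferase Suv39h1 (0.661), the centrosomal Cep78 (0.648) and Clptm1 again (0.638). Spats2l and Spats2 shared none of their closest genes. Single mice weigh on some of these values too. Kpna2 was 707.9 in P70 WT replicate 3 (others 597.7 to 607.1), the highest Spats2 of that group. Arhgap11a was 100.7 in P21 KO replicate 5 (others 121.2 to 124.1), the lowest Spats2 of that group.

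Spats2l was chosen for its P21 difference and its neighbours on chromosome 1 were not, so their values are given by themselves. Of the 5 tested genes on each side, 10 in all, 0 passed an adjusted p of 0.05 between KO and WT mice at P21 or P70, where 0% of all genes did by limma (429 genes at P21 and 199 at P70 had an unadjusted p under 0.05), and 0 of the 10 had an unadjusted p under 0.05 at either age. Their log2 differences at P21 ranged from -0.17 to 0.18, with a median of -0.02, against 0.00 over all genes. The nearest on either side were Maip1, a mitochondrial protein gene, at 445 in KO and 451 in WT mice, and Kctd18, at 399 in KO and 446 in WT mice (mean normalized counts). From P21 to P70, 2 of the 10 passed, where 25.4% of all genes did, and both fell: Maip1 (log2 difference -0.13, standard error 0.04) and 9130024F11Rik (-0.33, standard error 0.08).

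Around Spats2 on chromosome 15, 0 of the 10 tested neighbours passed between KO and WT mice at either age, where 0% of all genes did by limma, and 0 had an unadjusted p under 0.05. Their log2 differences at P21 ran from -0.32 (C1ql4) to 0.22 (Prph, an intermediate filament of peripheral neurons). With age, 2 of the 10 passed, or 20%, where 25.4% of all genes did. Tuba1a, the main alpha tubulin of growing neurons, fell from 41420 in P21 WT to 27740 normalized counts in P70 WT mice (log2 difference -0.54 over both genotypes, adjusted p = 8.88e-08 from limma). Kcnh3, a potassium channel of forebrain neurons, rose from 2869 to 3334 in the same groups (0.23, adjusted p = 0.0129).

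**Figure D4:**
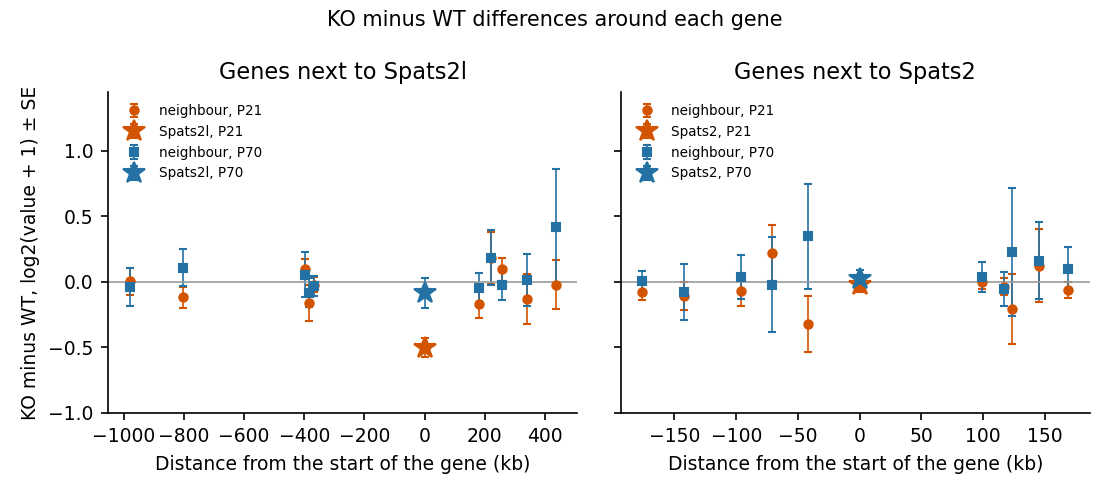
Difference between KO and WT mice in log2(value + 1), with standard errors, for Spats2l (left) and Spats2 (right) and the 5 tested genes on each side, against the distance between gene starts in kb, at P21 (orange) and P70 (blue), with stars for the gene itself. The 10 neighbours of Spats2l lie between -0.17 and 0.18 at P21, and the star of Spats2l at that age, -0.50, is the value it was chosen for.

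Of the genes in 4 lists for compartments and processes linked to Spats2l, 22.2% to 32.0% of a list passed with age, where 25.4% of all genes did, and 0 passed between genotypes. Of 41 stress granule genes, 0 passed between KO and WT mice at either age, with median log2 differences of -0.02 at P21 and -0.02 at P70, against 0.00 and 0.00 over all genes. From P21 to P70, 9 of the 41 rose and 2 fell, or 26.8%, beside 25.4% of all genes. Elavl1, which stabilizes messenger RNAs, rose from 1390 to 1847 normalized counts (log2 difference 0.41, standard error 0.05), and Atxn2, the ataxin partner of poly(A)-binding protein, from 2830 to 3283 (0.21, standard error 0.05). Pabpc1, the cytoplasmic poly(A)-binding protein, fell from 3881 to 3577 (-0.12, standard error 0.04), as did the RNA helicase Ddx1 (-0.27, standard error 0.09).

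Of 40 nucleolar genes, 0 passed between genotypes at either age. At an unadjusted p under 0.05, 3 of them lay apart at P21, or 7.5%, beside 2.44% of all genes. These were Polr1a, the largest subunit of RNA polymerase I, at 1228 ± 88.3 in KO and 1106 ± 80.7 in WT mice, Nol9 at 613 ± 21.6 and 666 ± 24.4, and Gar1 at 193 ± 22.8 and 228 ± 29.3 (normalized counts, SD, n = 5 each), each with an adjusted p of 1 from limma. With age 9 rose and 1 fell, or 25%. Nolc1, a nucleolar chaperone, rose from 1426 to 1804 normalized counts (0.34, standard error 0.04) and Rrn3, an initiation factor of RNA polymerase I, from 1352 to 1548 (0.20, standard error 0.03). Nop10, a part of the pseudouridylation complex, fell from 724 to 565 (-0.36, standard error 0.07). The median of the list over age was 0.08, against -0.01 for all genes.

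Of 25 genes of the integrated stress response, which slows translation through eIF2 and precedes stress granules, 0 passed between genotypes. Ddit4, an inhibitor of mTORC1 signalling, was 1600 ± 397 in P70 KO and 1997 ± 217 in P70 WT mice (normalized counts, SD, n = 5 each; unadjusted p = 0.0464 and adjusted p = 1 from limma), the only member under 0.05 without adjustment at either age, beside 1.13% of all genes at P70. With age 5 rose and 3 fell, or 32%. Ddit3 rose from 388 to 581 normalized counts (0.57, standard error 0.09) and Atf4, the central transcription factor of the response, from 2955 to 3769 (0.35, standard error 0.07). Eif2b1, a subunit of the exchange factor of eIF2, fell (-0.27, standard error 0.06), as did Ddit4 (-0.40, standard error 0.10). Of 9 genes for beta-adrenergic receptors, their kinases and arrestins, 0 passed between genotypes and 2 rose with age, or 22.2%: Arrb1 (0.19, standard error 0.04) and Grk2 (0.20, standard error 0.05).

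**Figure D5:**
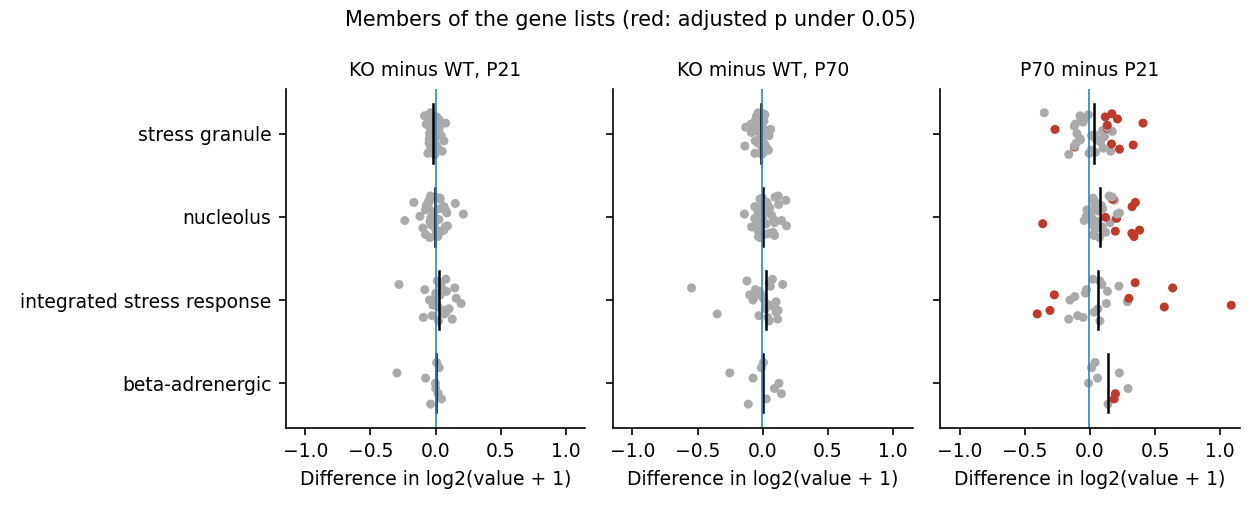
Difference in log2(value + 1) of each member of the 4 gene lists between KO and WT mice at P21, at P70, and between P70 and P21, in red where the adjusted p from limma was under 0.05, with the list median in black and the median of all genes in blue. Members passed only in the age comparison, 11 of 41, 10 of 40, 8 of 25 and 2 of 9 from top to bottom.

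In bulk brain RNA, fewer cells of a type and less RNA per cell cannot be told apart. Lists of 8 to 12 markers for 12 cell types were therefore summed in each mouse, and for none of them were KO and WT mice without overlap at either age. Several moved in part with the results above. At P21, all 5 blood markers above the minimum mean, of 7 in the table, had a lower mean in KO mice, and the list summed to 12080 to 30960 in KO and 24500 to 61280 normalized counts in WT mice. The WT mouse with the most blood transcripts, replicate 3, had the lowest Spats2l of the WT mice, which is a single mouse. Over the 20 mice, the deviations of the blood list and of Spats2l had r = -0.201. The P21 difference of Spats2l was -0.56 without WT replicate 3 and -0.44 without WT replicate 4. At the same age, 12 of 12 choroid plexus, 10 of 10 ependymal, 10 of 10 oligodendrocyte and 9 of 10 astrocyte markers had a higher mean in KO mice, and 1 of 10 endothelial and 0 of 5 pituitary markers did. The remaining lists had 5 to 8 of 10 markers higher in KO mice. The choroid plexus list summed to 14960 to 27680 in KO and 13170 to 19120 in WT mice, and the oligodendrocyte list to 408600 to 599600 in KO and 408700 to 461100 in WT mice. At P70, 11 of 12 choroid plexus, 8 of 10 ependymal, 2 of 10 oligodendrocyte and 3 of 10 astrocyte markers had higher KO means. So did 10 of 10 endothelial, 10 of 10 microglia, 5 of 5 pituitary and 5 of 5 blood markers. In the remaining lists, 5 to 8 of 10 did. The median log2 difference over all genes was 0.004 at P21 and -0.005 at P70. Markers of a list were measured in the same mice, so these counts are not independent observations. With age, the oligodendrocyte list went down with Spats2l, to 156700 to 206200 in P70 KO and 173600 to 198000 in P70 WT mice. The oligodendrocyte precursor list also went down, from 16010 to 20870 in P21 KO and 16620 to 18890 in P21 WT mice to 11320 to 13000 in P70 KO and 11370 to 12850 in P70 WT mice. The blood list was 7299 to 13110 in P70 KO and 6986 to 9959 in P70 WT mice, lower than at P21 apart from an overlap of the P70 and P21 KO mice. The correlation of a list's deviations with those of Spats2l over the 20 mice lay between -0.33 (oligodendrocytes) and 0.312 (choroid plexus). Of all list markers, none present in the table was at 0 in every mouse. The part of these cell types in the values of Spats2l was not tested.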

How the data were processed

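Whole-brain RNA libraries (TruSeq, poly-A selected) of 20 mice were analysed from 1 table of 19463 genes, of which 19447 IDs matched GENCODE M21. The authors quantified transcripts on GRCm38 with Salmon 1.1.0, correcting for GC bias, and summed them to genes by tximport. The deposited signal values are the normalized counts that DESeq2 then gave (version 1.26.0 in the submitters' processing notes). They are not whole reads, and the normalization carries gene-specific factors, so no count model was used and the depth of a library is not shown by its sum. Columns were matched to mice by title.

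KO and WT mice were compared at each age with limma 3.58.1 in R 4.3.3 (empirical Bayes, variance trended on level). Values entered as log2(value + 1), and genes whose mean was below 10 were left out. P70 and P21 were compared in all 20 mice, without a test for Spats2l, although one was planned, because its choice rests on P21 mice with unequal spread. P-values were adjusted by Benjamini-Hochberg over all genes tested, with a threshold of 0.05. The log2(value + 1) scale understates the change of low genes. The limma step was tested on simulated data. Single values were tested by exact permutation of mice. P-values set a difference against the spread between these mice, which limma takes in part from other genes of like level.

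The members, gene lists and tests were chosen with earlier results of these data known. Named genes were Katnal2, both members, the 2 genes next by p, the 5 genes most like each member, 10 neighbours of each, and up to 2 members per list and direction with the smallest p. Not all of these are printed, and some items are not reported here. Alternatives were other pseudocounts, filters, trend and scaling, all mice in one fit, the replicate block, and each mouse left out. No sequence of the proteins was used here.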

Additional observations from a re-analysis of the deposited data

Results flagged for a closer look

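In a group of 5 mice, a mouse was noted where its gap to the nearest other mouse exceeded 0.71 of the range of the group (Dixon's criterion). Of 204 sets of a named gene and a group, 14 were noted, or 6.86%, where chance gives about 1 in 20. Neither Spats2l nor Spats2, nor their ratio, was noted in any group. Of the 14, 7 were in the replicate 5 mice of P70. In the KO mouse of that number, Tuba1a was 33370 (the others 25880 to 27740), Prph 242.7 (68.8 to 86.2), Kcnh3 4341 (3045 to 3330), Gar1 297.4 (191.6 to 200.7), Nop10 718.7 (507.5 to 564.2) and Elavl1 1543 normalized counts (1904 to 1930). In the WT mouse of that number, Ddx1 was 1974 normalized counts (3086 to 3535).

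In P70 WT replicate 3, Mdga1 was 913.9 (1234 to 1319) and Kpna2 707.9 normalized counts (597.7 to 607.1). Among P21 KO mice, Cldn34c1 was 142.7 (109.8 to 118.6) and Pabpc1 3731 (3930 to 3946) in replicate 1, Aph1c was 371.3 (278.4 to 297.3) in replicate 3, Lenep was 37.14 in replicate 4 and listed at 0 in the others, and Arhgap11a was 100.7 (121.2 to 124.1) in replicate 5.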

How the results depend on the processing

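Both Spats2 genes kept the direction of each difference under every alternative run (other pseudocounts, filters, no trend, quantile normalization, a single fit, the replicate block, mice left out). No tested difference of these genes changed its side of the threshold. The age difference of Spats2l, which carries no test, was -0.17 in KO mice by themselves. With each mouse left out in turn, Spats2l ranged from -0.56 to -0.44 at P21, -0.16 to -0.01 at P70 and -0.41 to -0.34 for age, and Spats2 from -0.04 to -0.01, 0.01 to 0.04 and -0.07 to -0.05. The labels do not say that a shared replicate number marks a litter or batch. The deviations of same-numbered mice correlated at 0.00511 to 0.709, over 0.1 in 2 of 5 pairs at P21 and 4 of 5 at P70. Of 10 mice, 5 at P21 and 7 at P70 correlated best with their own number. These values neither establish nor exclude a pairing, and the main comparisons did not use one. With the replicate block, the Spats2l age difference was -0.37, and genes with an unadjusted p under 0.05 numbered 732 at P21 and 610 at P70, against 429 and 199. In a single fit of 20 mice they numbered 200 and 338, and with a minimum mean of 50, 108 at P70. For age, WT mice by themselves gave 1643 genes past the adjusted threshold and 4315 unadjusted, and KO mice 1467 and 4008, from 10 mice each, against 4478 and 6488. With a mouse left out, the adjusted count was 0 to 1 at P21 (Lenep without P21 KO replicate 4, and without P21 WT replicate 3 Spats2l, for which that is no test since these values chose it), and the unadjusted count 353 to 657 at P21 and 162 to 515 at P70. Without adjustment, 3 pathway list genes passed at P21 and 1 at P70, against 0. The cause of these shifts was not tested.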
